A study of Mus musculus with 32 samples.

Results

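Otx1, Otx2, Six3, Six6, Lhx2, Emx2, En2, Gbx2 and Irx3 are transcription factors that mark out regions of the early neural tube. These 9 genes were chosen by name as brain regional patterning factors, out of 23154 genes in the expression tables. They were described in 367 neuronal cells of the developing mouse brain, 184 labelled forebrain and 183 labelled hindbrain, and then in 1385 cells of heart, intestine, liver, lung, skin and somite. The neuronal cells were those that the study itself placed in its neuronal group. Its other groups were epithelial, mesoderm-derived and hematopoietic.

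All embryos were untreated C57BL/6J mice, and each cell was picked by hand from an organ dissected out of a single embryo. Brain cells came from 6 embryos, 2 each at E9.5, E10.5 and E11.5 (E for embryonic day), and each of the 6 embryos gave both organs. E9.5 embryo 2 was labelled female and the other 5 brain embryos male. E9.5 embryo 3 gave other organs but no brain cells. For the E9.5 embryos the tissue label of the hindbrain samples was metencephalon, the part of the hindbrain next to the midbrain, whereas the E10.5 and E11.5 samples were labelled hindbrain. The unit was TPM, here the unique molecular identifiers (UMIs, each marking a single captured transcript) of a gene among 1000000 of its cell, and levels are given as log2(TPM/10 + 1). A cell was taken to express a gene at 10 TPM or more. The embryo was the replicate, and an embryo mean is the mean of this log2 value over its cells.

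The genes work as a map of the front end of the nervous system. Otx1 and Otx2 belong to the orthodenticle family and hold the identity of forebrain and midbrain, and Otx2 meets the hindbrain factor Gbx2 at the midbrain-hindbrain boundary, the signalling centre where the engrailed gene En2 is also active. Six3 and Six6 act in the anterior forebrain and the eye, Lhx2 and Emx2 pattern the dorsal forebrain, and Irx3, an Iroquois factor, is known from the neural tube behind the anterior forebrain. All of them bind DNA through a homeodomain.

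The stretches that follow, from 8 of the 9 genes, show how these are related, and why Otx1 and Otx2, and likewise Six3 and Six6, are read as family pairs in the results. Each is 36 bases of coding sequence, 12 codons of the homeobox that encode the end of the helix lying in the major groove, beginning with the codon before the conserved tgg. It was read 5′ to 3′ from the mouse genome build GRCm38 with the GENCODE M21 annotation, and the codon in capitals encodes the residue that is best known for setting which bases are preferred beside the TAAT core.
Otx1 (chr11:21997023-21997058, minus strand, exon 5 of 5): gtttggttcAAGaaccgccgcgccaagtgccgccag
Otx2 (chr14:48659291-48659326, minus strand, exon 5 of 5): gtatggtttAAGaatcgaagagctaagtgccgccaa
Six3 (chr17:85621996-85622031, plus strand, exon 1 of 3): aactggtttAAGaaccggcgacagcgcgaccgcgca
Six6 (chr12:72940575-72940610, plus strand, exon 1 of 2): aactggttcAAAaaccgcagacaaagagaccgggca
Lhx2 (chr2:38368842-38368877, plus strand, exon 5 of 5): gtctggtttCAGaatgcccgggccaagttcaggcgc
Emx2 (chr19:59463886-59463921, plus strand, exon 3 of 3): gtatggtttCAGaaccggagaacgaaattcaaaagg
En2 (chr5:28170301-28170336, plus strand, exon 2 of 2): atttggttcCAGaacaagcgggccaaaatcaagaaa
Irx3 (chr8:91800505-91800540, minus strand, exon 2 of 4): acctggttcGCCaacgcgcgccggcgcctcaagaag
The codon in capitals was AAG in Otx1, Otx2 and Six3, CAG in Lhx2, Emx2 and En2, and GCC in Irx3. Six6 carried AAA, a different codon for the same residue as AAG. Over 180 bases of the homeobox, lined up at the conserved tgg without gaps, Otx1 and Otx2 were identical at 80% of bases. Six3 and Six6 were identical at 81.1%. With Irx3 left aside, every other pair among these genes matched at 37.8 to 56.1% of bases. Pairs with Irx3 are not given, since a count without gaps holds only for homeoboxes of equal length. The coding lengths ran from 738 bases in Six6 to 1566 in Irx3.

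Before the levels, 3 facts about the libraries bear on every result. First, the cells labelled hindbrain held almost no Hox transcripts, which mark the neural tube behind the first hindbrain segment. Of 13 Hox genes, any was at 10 TPM or more in 2 of 183 hindbrain neuronal cells and in 0 of 184 forebrain neuronal cells, which allows a share of up to 1.63% (for a count of 0, the limit given here and in what follows is 3 counts of the total), against 170 of 199 somite mesoderm-derived cells (85.4%). Second, the 2 hindbrain libraries of E9.5 were rich in Otx2, the forebrain and midbrain factor. It was expressed in 43 of 43 cells of embryo 1 (exact 95% binomial interval 91.8 to 100%) and in 31 of 32 cells of embryo 2 (96.9%, 83.8 to 99.9%). In embryo 1 no En2 UMI was found in 43 cells, which allows a share of cells with a UMI of up to 6.98%, and the boundary genes En1, Pax8, Fgf8, Fgf17 and Cnpy1 had embryo means of 0.00 there, while Wnt1 stood at 0.97 and Pax3 at 3.52. These cells are therefore called cells labelled hindbrain, and the comparisons of organs, days and sides are also given over E10.5 and E11.5 alone. Last, 1 embryo stood apart in depth. The median number of UMIs per neuronal cell lay between 95277 and 288831 in the embryos other than E9.5 embryo 2, where it was 1115880 in forebrain and 1075130 in hindbrain, and the labels name the HiSeq 2500 for E9.5 embryos 1 and 2 and the HiSeq 4000 for the other embryos. Instrument and day cannot be told apart in the brain.

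The makeup of the neuronal cells also moved with day. A cell was placed on the neuron side where its mean over 8 neuron genes exceeded its mean over 8 progenitor genes. In forebrain this share was 2.22% and 0% in the E9.5 embryos, 22.2% and 70.4% at E10.5 and 70% in both E11.5 embryos. In hindbrain it was 27.9% and 31.2% at E9.5, 76.7% and 37% at E10.5, and 73.1% and 52% at E11.5. Forebrain E10.5 embryo 1 stood on 9 cells only, and its mean over 7 mesenchyme genes was the highest of the forebrain embryos, in a forebrain range of 0.22 to 1.22 against 0.06 to 0.23 in hindbrain. The mean over 7 blood genes ran from 0.31 to 3.64 in forebrain and from 0.30 to 2.87 in hindbrain, and that over 5 endothelial genes from 0.00 to 0.08 in forebrain and to 0.10 in hindbrain. The part of these lists in the results was not tested. Transcripts of the 9 genes were also found in the 33 blood cells of the same organs, 16 from forebrain and 17 from hindbrain. Otx2 had a UMI in 11 of the 17 hindbrain blood cells (median depth 686435 UMIs) against 132 of 183 neuronal cells, yet its level was 0.53 against 2.70, and Lhx2 had a UMI in 12 of the 16 forebrain blood cells (median depth 206945) at a level of 0.99 against 3.62. Shares of cells with any UMI were therefore not used as a sign of expression.

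The main question was which of these factors differed between forebrain and hindbrain. Lhx2, Emx2 and Six3 were higher in forebrain neuronal cells, and Irx3 and En2 were higher in cells labelled hindbrain. Otx1, Otx2, Six6 and Gbx2 did not pass the test. So 5 of 9 genes were called at an adjusted p under 0.05 (limma on 6 embryo means per organ with embryonic day as a covariate, Benjamini-Hochberg over 14195 genes), where 1.24% of all genes tested were called, 3 higher in forebrain against a background of 0.275% and 2 lower against 0.965%. With the replicate block, in which the 2 organs of an embryo are compared within that embryo, the same 5 genes were called while the count over all genes fell from 176 to 113. The embryo means of the organs did not overlap for 4 of the 9 genes, Six3, Lhx2, Emx2 and Irx3, and for 1.2% of all genes. Over E10.5 and E11.5 alone, Lhx2 stood at 2.57 (adjusted p = 0.0088), Emx2 at 2.15 (0.00087), Irx3 at -2.01 (0.0019) and En2 at -1.47 (0.00072), all 4 still called. There Six3 stood at 1.32 (0.062), Otx1 at 0.51 (0.52), Otx2 at -0.96 (0.38) and Gbx2 at -0.23 (0.15), while too few cells expressed Six6 for a test. The median difference was -0.09 over the 9 genes and -0.03 over all genes.

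**Figure D1:**
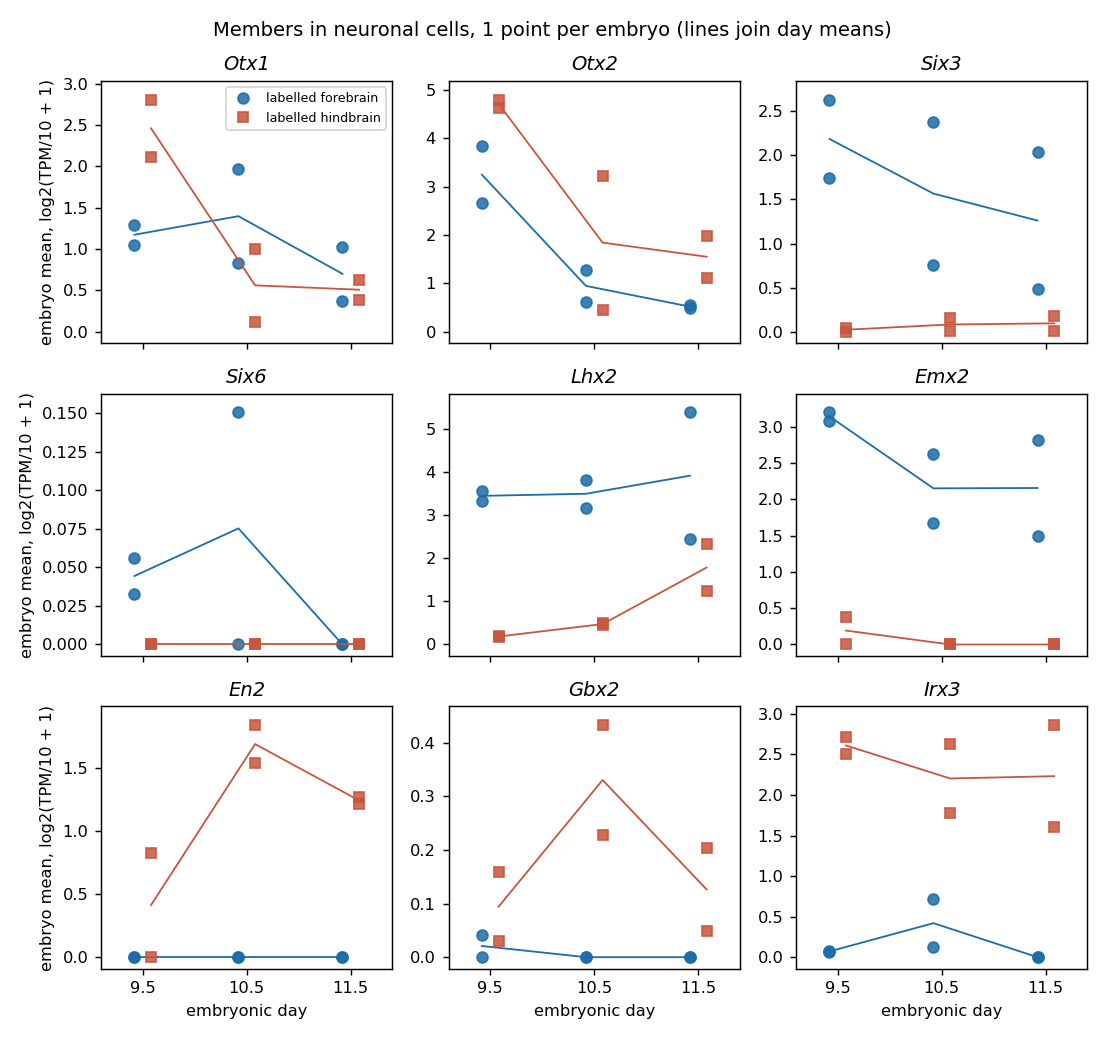
Embryo means of the 9 genes in neuronal cells, on the scale log2(TPM/10 + 1), by embryonic day. Each point is 1 embryo, circles are cells labelled forebrain and squares cells labelled hindbrain, lines join the means of each day, and each panel has its own vertical scale. The circles stand above the squares at every day for Lhx2, Emx2 and Six3 and below them for Irx3. The lines of Otx1 cross, while for Otx2 the circles stand below the squares at E9.5 and E11.5 and overlap them at E10.5.

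Lhx2, a LIM homeodomain factor needed for the cortex and the eye, was measured in all forebrain embryos. Its embryo means were 3.56 and 3.33 at E9.5, 3.18 and 3.81 at E10.5, and 5.38 and 2.44 at E11.5 in forebrain. In hindbrain they were 0.17 and 0.20, then 0.50 and 0.45, then 1.24 and 2.33. The lowest forebrain embryo stood just above the highest hindbrain embryo, both from E11.5 embryo 2, where the organs differed by 0.11 only. The difference, forebrain minus hindbrain, was 2.80 (95% interval 2.01 to 3.60, adjusted p = 0.00065), at place 3 from the highest of all genes tested. In forebrain 66.7 to 100% of an embryo's cells expressed Lhx2, and in hindbrain the share ran from 4.65% in E9.5 embryo 1 to 44% in E11.5 embryo 2.

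Emx2, an empty spiracles factor of the dorsal forebrain, was found at a level above 0.01 in 1 hindbrain embryo only. Its forebrain embryo means were 3.08 and 3.20 at E9.5, 2.62 and 1.68 at E10.5, and 2.82 and 1.49 at E11.5. In hindbrain it stood at 0.38 in E9.5 embryo 1 and at 0.00 in the other 5 embryos, among which only E9.5 embryo 2 held any UMI of it. The difference was 2.42 (1.90 to 2.93, adjusted p = 5.8e-05), higher in forebrain in 6 of 6 embryos. Emx2 shares its locus with the antisense gene Emx2os, and since the strand setting of the counting is not given in the sources used here, reads of such partners cannot be told apart. The same holds for Otx2 with Otx2os1, Six3 with Six3os1 and Six6 with 4930447C04Rik. Lhx2, En2, Gbx2 and Irx3 also overlap annotated genes of the other strand, which were not in the expression tables.

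Six3, a sine oculis factor of the anterior forebrain, varied more among forebrain embryos. Its means were 2.63 and 1.74 at E9.5, 0.76 and 2.38 at E10.5, and 0.49 and 2.03 at E11.5, against 0.00 to 0.18 in hindbrain. The forebrain means fell into a lower set of 2 embryos at 0.49 and 0.76 and a higher set of 4 between 1.74 and 2.63, and the share of cells expressing it followed, from 10% in E11.5 embryo 1 to 82.2% in E9.5 embryo 1. The difference was 1.60 (0.99 to 2.22, adjusted p = 0.0083). It was no longer called without the E9.5 embryos, as given above, or with no filter on low genes (adjusted p = 0.079). Over all alternatives its adjusted p lay between 0.0021 and 0.079. Its relative Six6 was found in very few cells. Six6 had 27 UMIs in 3 forebrain cells and no UMI in 183 hindbrain cells, which allows a share of cells of up to 1.64% and a level of up to 0.039 TPM at 3 UMIs over all cells. The forebrain level of Six6 was 0.04 ± 0.06 (SD, n = 6 embryos), and the organs did not differ beyond their spread (adjusted p = 0.62).

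Irx3 stood in the opposite direction, higher in cells labelled hindbrain. In hindbrain its means were 2.71 and 2.51 at E9.5, 2.63 and 1.78 at E10.5, and 1.60 and 2.86 at E11.5. In forebrain they were 0.08 and 0.06, then 0.72 and 0.12, then 0.00 and 0.00. The highest forebrain value came from the 9 cells of E10.5 embryo 1, of which 22.2% expressed Irx3. The difference was -2.19 (-2.67 to -1.70, adjusted p = 7.5e-05), lower in forebrain in 6 of 6 embryos and at place 11 from the lowest of all genes tested. In hindbrain 38.5 to 74.4% of an embryo's cells expressed it.

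En2, the engrailed gene of the midbrain-hindbrain boundary, had no UMI in 184 forebrain neuronal cells, which allows a share of cells with a UMI of up to 1.63% and a level of up to 0.040 TPM. In hindbrain its embryo means were 0.00 and 0.83 at E9.5, 1.84 and 1.54 at E10.5, and 1.27 and 1.21 at E11.5. The organs overlapped only through E9.5 embryo 1, the library described above in which 5 boundary genes had means of 0.00. The difference was -1.12 (-1.56 to -0.68, adjusted p = 0.010). With no filter on low genes its adjusted p was 0.083, the highest of its alternatives. Gbx2, the hindbrain partner of Otx2, was higher in hindbrain in 6 of 6 embryos but at a low level, with means of 0.16 and 0.03, then 0.43 and 0.23, then 0.05 and 0.20. In forebrain it stood at 0.04 in E9.5 embryo 1 and at 0.00 elsewhere. Its difference of -0.18 (-0.29 to -0.06) did not pass the test (adjusted p = 0.15).

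Otx1 and Otx2 did not divide the organs as labelled. In forebrain the Otx2 means were 3.84 and 2.66 at E9.5, 1.29 and 0.61 at E10.5, and 0.48 and 0.56 at E11.5. In cells labelled hindbrain they were 4.80 and 4.63, then 0.46 and 3.23, then 1.11 and 1.99. Otx2 was thus higher in the cells labelled hindbrain in 5 of 6 embryos, with E10.5 embryo 1 the other way, and the difference was -1.13 (-2.06 to -0.21, adjusted p = 0.27). Without E10.5 embryo 1 it was -1.52 with an adjusted p of 0.026, and over the alternatives the adjusted p lay between 0.026 and 0.75. The Otx1 means were 1.05 and 1.29, then 1.97 and 0.83, then 1.03 and 0.37 in forebrain, and 2.81 and 2.11, then 0.12 and 1.0, then 0.39 and 0.63 in hindbrain. At E9.5 both hindbrain embryos lay above both forebrain embryos for Otx1, whereas at E10.5 and E11.5 the organs overlapped. For Otx2 both hindbrain embryos lay above both forebrain embryos at E9.5 and E11.5, with overlap at E10.5. The Otx1 difference over all days was -0.09 (-0.75 to 0.58, adjusted p = 0.94).

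**Figure D2:**
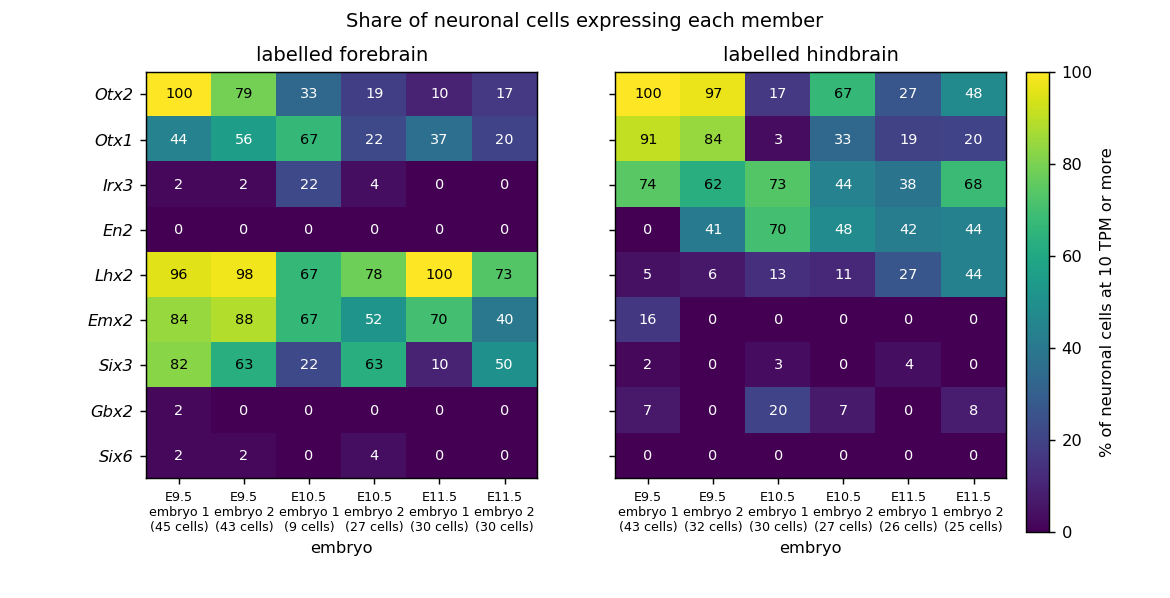
Percent of neuronal cells at 10 TPM or more for each gene (rows) and embryo (columns, with the number of cells), for cells labelled forebrain on the left and hindbrain on the right, with color running from 0 to 100%. Otx2 reaches 100% in E9.5 embryo 1 of both organs, En2 is at 0% in every forebrain embryo and in hindbrain E9.5 embryo 1, and Emx2 is at 0% in the 5 hindbrain embryos other than that one.

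The expressing shares of single embryos rested on 9 to 45 cells, so their intervals were wide. For Otx2 in hindbrain at E10.5, 5 of 30 cells of embryo 1 expressed it (16.7%, exact 95% binomial interval 5.64 to 34.7%) and 18 of 27 cells of embryo 2 (66.7%, 46.0 to 83.5%). These 2 embryos of the same day did not overlap in their intervals, and the same embryos differed in the neuron-side share, 76.7% against 37%. For En2 they were closer, with 21 of 30 cells (70%, 50.6 to 85.3%) and 13 of 27 cells (48.1%, 28.7 to 68.1%). Intervals and limits of this kind cover counting error only.

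Day by day, the same contrast rested on 2 embryos per organ and fewer genes passed. At E9.5 (0.683% of genes called) 2 of the 9 genes were called, Emx2 at 2.95 (adjusted p = 0.0066) and Irx3 at -2.54 (adjusted p = 0.013). Lhx2 stood at 3.26 there with an adjusted p of 0.053, Six3 at 2.16 (0.10), Otx1 at -1.29 (0.29), Otx2 at -1.47 (0.53) and En2 at -0.41 (0.65). At E10.5 (0.472% called) En2 was called at -1.69 (adjusted p = 0.0075) and Emx2 at 2.15 (adjusted p = 0.041), and Lhx2 stood at 3.02 (0.084), Irx3 at -1.78 (0.087) and Gbx2 at -0.33 (0.097). At E11.5 (0.331% called) Irx3 was called at -2.23 (adjusted p = 0.038) and Emx2 at 2.16 (adjusted p = 0.048), with En2 at -1.24 (0.053), Six3 at 1.16 (0.58) and Lhx2 at 2.13 (0.32). For Lhx2 at E11.5 the 2 embryos gave unlike values, with a difference of 4.15 without embryo 2 (adjusted p = 0.0036 by limma) and of 0.11, not called, without embryo 1. Of the 9 genes, Emx2 alone was called at each of the 3 days by limma. By edgeR on summed UMIs it was called at none of them (adjusted p 0.13, 0.057 and 0.052), En2 was not called at E10.5 (0.30), and Lhx2 was called at E9.5 (0.0062) and E10.5 (0.047).

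The calls within a day were not stable. With the replicate block Emx2 had an adjusted p of 0.093 at E10.5 and 0.11 at E11.5, and Irx3 had 0.059 at E11.5, and the counts over all genes fell from 97 to 42 at E9.5, from 67 to 20 at E10.5 and from 47 to 17 at E11.5. Leaving out an embryo leaves 1 embryo per organ at its day, which is then assumed to vary like those of the other days, so a lost call is no sign of a smaller difference. Leaving out either E9.5 embryo ended the E9.5 calls of Emx2 (3.19 with an adjusted p of 0.24 without embryo 1, 2.71 with 0.25 without embryo 2) and of Irx3 (-2.45 with 0.55 and -2.63 with 0.27). The E10.5 call of En2 was lost without E10.5 embryo 1 (0.19). That of Emx2 was lost without any 1 of the E9.5 and E10.5 embryos (0.058 to 0.45), and at E11.5 without any embryo other than E11.5 embryo 2 (0.060 to 0.42). The E11.5 call of Irx3 was lost without either E11.5 embryo (0.061 and 0.28) or either E9.5 embryo (0.24 and 0.31). In each of these cases the sign stayed.

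**Figure D3:**
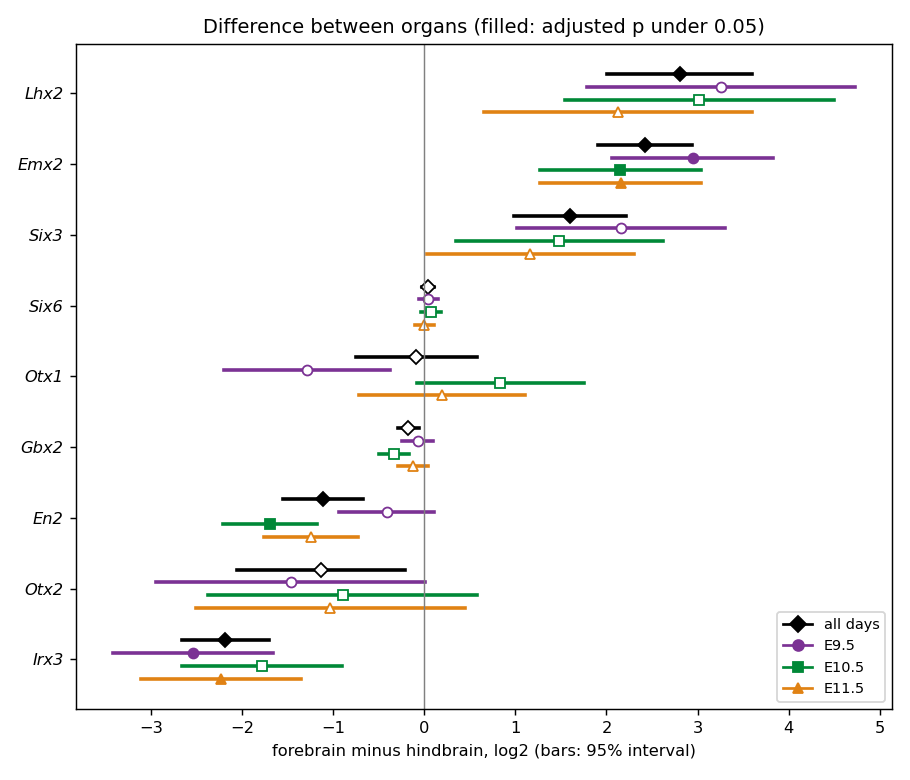
Difference between forebrain and hindbrain neuronal cells for the 9 genes, in log2(TPM/10 + 1), over all days (diamonds) and at E9.5 (circles), E10.5 (squares) and E11.5 (triangles), with 95% intervals from the limma fit. Filled symbols passed an adjusted p under 0.05. The symbols of Lhx2, Emx2 and Six3 lie to the right of 0 and those of Irx3 and En2 to the left, while those of Otx1 lie on both sides.

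The next comparison was the change with embryonic day within each organ. Otx2 fell in both organs, by 1.36 per day in forebrain (95% interval -2.19 to -0.54, adjusted p = 0.026) and by 1.58 per day in hindbrain (-2.40 to -0.76, adjusted p = 0.031). Otx1 fell by 0.98 per day in hindbrain (-1.50 to -0.45, adjusted p = 0.035), and stood at -0.24 per day in forebrain (adjusted p = 0.60). No other gene of the 9 was called. In forebrain this was 1 of 9 where 16.1% of all genes were called, and in hindbrain 2 of 9 where 5.09% were called, so the forebrain share was near the background. In hindbrain, Lhx2 stood at 0.80 per day (adjusted p = 0.15) and En2 at 0.41 per day (adjusted p = 0.16). By edgeR (TMM) on the summed UMIs of each embryo none of these 3 falls was called, with Otx2 at -1.23 in forebrain (adjusted p = 0.14) and -0.85 in hindbrain (0.47) and Otx1 at -1.24 in hindbrain (0.28). The Lhx2 slope in hindbrain was called by edgeR instead, at 2.68 with an adjusted p of 0.0043, in a range of 0.0038 to 0.69 over its alternatives.

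The day means of Otx2, and of Otx1 in hindbrain, dropped most between E9.5 and E10.5. The instrument changed at that same step, and in hindbrain the tissue label did too, so these cannot be told apart from day. For Otx2 the 2 hindbrain embryos of E10.5 stood at 0.46 and 3.23. Over E10.5 and E11.5 alone, the slope of Otx2 was -0.43 in forebrain (adjusted p = 0.85) and -0.29 in hindbrain (0.93), and that of Otx1 in hindbrain was -0.05 (0.99). The neuron-side share given above also changed with day, and its part in the slopes was not tested. Among progenitor-side cells alone the Otx2 slope was -0.78 in forebrain (adjusted p = 0.44) and -1.47 in hindbrain (0.17), and the Otx1 slope in hindbrain was -0.96 (0.16). The forebrain Otx2 call was lost without E9.5 embryo 1 (adjusted p = 0.18), E9.5 embryo 2 (0.079) or E11.5 embryo 1 (0.073), and the hindbrain call without the same 3 embryos in turn (0.11, 0.18 and 0.13). The hindbrain Otx1 call was lost without either E9.5 or either E11.5 embryo (0.057 to 0.20). With cells thinned to 50000 UMIs the slopes were close to those given, Otx2 at -1.33 in forebrain (adjusted p = 0.039) and -1.54 in hindbrain (0.051) and Otx1 at -0.94 in hindbrain (0.069), the hindbrain calls being lost.

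Whether an organ changed faster than the other was tested as the interaction of organ and day. By limma 0 of 14195 genes were called, with 995 at an unadjusted p under 0.05, and by edgeR 2 genes were called with either normalization, none of them among the 9. Otx1 came nearest, with a forebrain slope higher by 0.74 per day than the hindbrain slope (-0.0035 to 1.48, unadjusted p = 0.051, adjusted p = 0.71). The Otx2 slopes differed by 0.22 (-0.94 to 1.38), an interval that reaches beyond 1 log2 unit per day.

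The neuronal cells were then divided into the progenitor and the neuron side, to see which side carried each gene. In forebrain, Otx2 was expressed in 91 of 120 progenitor-side cells (75.8%) and in 4 of 64 neuron-side cells (6.25%), Otx1 in 53.3% and 14.1%, Emx2 in 81.7% and 48.4%, Six3 in 61.7% and 42.2%, and Lhx2 in 95.8% and 76.6%. In hindbrain, with 96 and 87 cells on the sides, Otx2 was expressed in 76.0% and 49.4%, Otx1 in 59.4% and 33.3%, Irx3 in 69.8% and 52.9% and Gbx2 in 11 of 96 and 2 of 87 cells. In hindbrain the share was higher on the neuron side for En2, with 31.2% and 44.8%, and for Lhx2, with 4.17% and 28.7%. Cells of all embryos are pooled in these shares, and the days weigh unequally on the sides.

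The sides were tested over embryo means of at least 3 cells with day as a covariate. In forebrain the neuron side then rested on 3 embryos, 1 of E10.5 and 2 of E11.5 with none of E9.5, against 6 on the progenitor side, and in hindbrain each side rested on 6. Emx2 was lower on the neuron side in forebrain (difference -1.28, 95% interval -1.89 to -0.67, adjusted p = 0.0053), and no other of the 9 genes was called there, where 10.9% of 14186 genes were. Otx2, with the largest gap in pooled shares, stood at -1.0 (-2.46 to 0.45, adjusted p = 0.44) by limma, and by edgeR (TMM) it was called at -4.34 (adjusted p = 0.029). In hindbrain Irx3 was lower on the neuron side (-0.82, -1.37 to -0.26, adjusted p = 0.038) where 17.1% of genes were called. In each organ 1 of 9 genes was called, near the background share or below it. The Emx2 call was lost without E11.5 embryo 2 (-0.95, adjusted p = 0.092) and by edgeR (-0.91, 0.67), with 0.00088 to 0.72 over all its alternatives, and the Irx3 call was lost under 10 of 16 alternatives, with adjusted p between 0.017 and 0.26. Leaving out E9.5 embryo 1, E9.5 embryo 2, E10.5 embryo 1 or E10.5 embryo 2 in turn was among these (0.054 to 0.20). With the replicate block, Gbx2 in hindbrain was called as well, at -0.33 with an adjusted p of 0.037 in place of 0.070. Over E10.5 and E11.5 alone Emx2 was called in forebrain (-1.26, adjusted p = 0.022) and so was Otx1 (-1.39, adjusted p = 0.015, in a range of 0.015 to 0.93 over its alternatives), and Irx3 in hindbrain was not (-0.65, adjusted p = 0.26). Gbx2 in hindbrain was called there too (-0.48, adjusted p = 0.028, in a range of 0.028 to 0.18).

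For Lhx2 in hindbrain the level of the expressing cells was described as well as their share, with cells of all embryos and days pooled. The 25 neuron-side cells that expressed it averaged 443 TPM and the 4 progenitor-side cells 26.5 TPM, the latter too few to compare levels. Its difference of 1.18 (0.20 to 2.16) had an adjusted p of 0.094 by limma on embryo means, and of 3.4e-05 by edgeR on summed UMIs (log2 fold change 4.91), in which cells with many UMIs weigh more. Over all alternatives the adjusted p ran from 3.0e-05 to 0.17. In forebrain, where Lhx2 was found on both sides, the expressing cells averaged 214 TPM on the progenitor side and 409 TPM on the neuron side, and the embryo means gave -1.11 (adjusted p = 0.28, limma). By day, the expressing share in hindbrain was 4.65% and 6.25% at E9.5, 13.3% and 11.1% at E10.5, and 26.9% and 44% at E11.5.

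**Figure D4:**
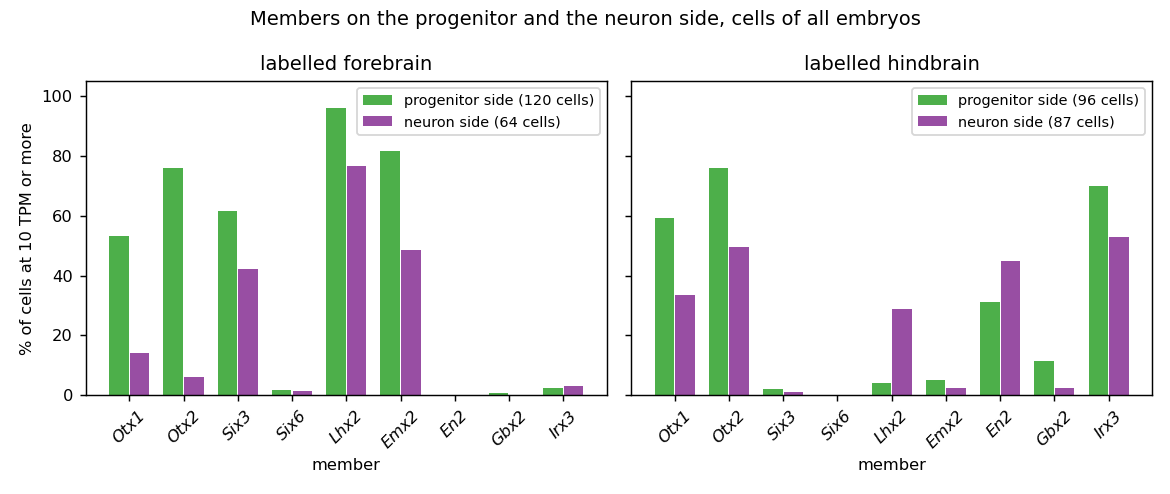
Percent of neuronal cells at 10 TPM or more for each gene on the progenitor side and the neuron side, cells of all embryos together, for forebrain (120 and 64 cells) and hindbrain (96 and 87 cells). Bars start at 0 and carry no error, since the cells of an embryo are not independent. The progenitor bar is the taller for Otx1, Otx2 and Emx2, and in hindbrain the neuron bar is the taller for Lhx2 and En2.

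Which factors were found in the same cells was counted at 10 TPM or more. In forebrain 124 cells expressed both Lhx2 and Emx2, which is 96.1% of the 129 Emx2 cells and 75.6% of the 164 Lhx2 cells. Over all forebrain cells 89.1% expressed Lhx2 and 70.1% Emx2, so neither share of the pair lies far above its base. Of the 101 forebrain cells with Six3, 88 also expressed Lhx2 (87.1%) and 68 Emx2 (67.3%), and of the 95 with Otx2, 90 expressed Lhx2 (94.7%). Since 164 of 184 forebrain cells expressed Lhx2, a high share with Lhx2 follows for any partner. In hindbrain 83 of the 86 Otx1-expressing cells also expressed Otx2 (96.5%), of which 39 came from E9.5 embryo 1 and 27 from E9.5 embryo 2.

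In hindbrain, part of the cells held both Otx2 and the boundary factor En2. Otx2 was expressed in 116 and En2 in 69 of 183 cells, and both in 34, which is 49.3% of the En2 cells and 29.3% of the Otx2 cells. By embryo, both were found in 0 of 43 and 12 of 32 cells at E9.5, in 4 of 30 and 8 of 27 at E10.5, and in 5 of 26 and 5 of 25 at E11.5. Gbx2 was expressed in 13 cells, of which 4 also expressed Otx2, 3 of these in E9.5 embryo 1 and 1 in E10.5 embryo 2. Irx3 was found in 74 of the 116 Otx2 cells (63.8%) and in 37 of the 69 En2 cells (53.6%). Its share over all hindbrain cells was 61.7% (113 of 183), so neither share lies far above that base. All 7 hindbrain cells with Emx2 were from E9.5 embryo 1, and all of them expressed Otx1 and Otx2. In that embryo 43 of 43 cells expressed Otx2 and 39 of 43 Otx1. Sharing with Otx2 therefore follows there for any gene, Gbx2 included, and sharing with Otx1 for nearly any. Only 2 of the 43 cells of that embryo expressed Lhx2, too few to say whether Lhx2 and Emx2 share cells in hindbrain. Counted at a single UMI, Otx2 and En2 shared 56 cells.

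Other genes of the same regional map were read from lists, 24 forebrain genes, 16 genes of the midbrain and its boundary, 21 hindbrain and Hox genes, 16 relatives of the 9 genes and 8 genes of the optic vesicle. Of 22 forebrain genes tested between the organs over all days, 9 were higher in forebrain and none lower, with a median of 0.28 against -0.03 over all genes. Over all genes tested, 0.275% were called higher in forebrain and 0.965% lower. Within single days 3 of the forebrain genes were higher and 2 lower at E9.5 (0.683% of all genes called in either direction). The counts were 6 and 0 at E10.5 (0.472%) and 2 and 1 at E11.5 (0.331%). The lower ones were Dmbx1 and Barhl1 at E9.5 and Barhl1 at E11.5, and both genes were higher in hindbrain in 6 of 6 embryos with no overlap, though not called over all days (-0.76, adjusted p = 0.067, and -0.49, adjusted p = 0.071). These 2 genes were chosen after their values were seen. Among the 9 higher over all days were Nr2e1, an orphan nuclear receptor of neural progenitors, at 1.53 (adjusted p = 0.00065), and Shisa2 at 1.49 (0.00062). Of 15 midbrain and boundary genes tested, 5 were lower in forebrain and none higher (median -0.46). They were led by Pax3 at -2.19 (0.0038), En1 at -1.58 (0.017), Wnt1 at -0.44 (0.040) and Cnpy1 at -0.44 (0.011). The mean over the 16 listed genes was higher in hindbrain in every embryo but E9.5 embryo 1, where it was 0.64 in forebrain and 0.55 in hindbrain. The highest forebrain embryo means in this list were led by Spry1 (3.46), Fgf17 (3.02) and Spry2 (1.10). For En1, Pax2 and Wnt1 the highest forebrain embryo means were 0.0037, 0.0025 and 0.0076, and for Pax3 it was 0.25. Only 8 of the 21 hindbrain and Hox genes were tested and 1 was lower in forebrain, Crabp1, a retinoic acid binding protein, at -4.71 (8.2e-07). Its embryo means in hindbrain were 4.96 to 6.77 against 0.09 to 2.07 in forebrain. None of 5 optic vesicle genes tested was called. The adjusted p-values are limma's, over all 14195 genes.

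Among the relatives, 4 of 14 tested were lower in forebrain and none higher (median 0.02), where 0.965% of all genes were lower and 0.275% higher. These were Irx2 at -1.90 (adjusted p = 7.6e-05), Irx5 at -1.75 (0.00034) and Irx1 at -0.66 (0.00033), all Iroquois factors like Irx3, and En1, the other engrailed gene. En1 was counted among the midbrain and boundary genes as well. Irx2 had forebrain embryo means of 0.00 in all 6 embryos and hindbrain means of 1.30 to 2.77, and Irx5 had 0.00 to 0.02 against 0.80 to 2.46. The hindbrain embryo means of En1 were 0.00 and 1.2, then 2.75 and 1.90, then 2.47 and 1.13, with 0.00 in the same embryo as En2. The limma adjusted p-values are again those over all genes tested.

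The genes most like each of the 9 were taken as the 3 with the highest Pearson r over the 12 embryo means, 6 per organ, among 10316 genes with a mean of at least 0.2. These 12 means share embryos, depth and instrument, so r is a description. Emx2 was most like Pcdh19 (r = 0.97), Nr2e1 (0.94) and Mpped1 (0.94), and Lhx2 most like Fezf2 (0.90), Emx2os (0.90) and Dmrta1 (0.89). Six3 had lower values, with Dlk1 (0.84), E330013P04Rik (0.84) and Mpped1 (0.83). En2 went with Sncg (0.98), Pax8 (0.97) and En1 (0.96), Irx3 with Jam2 (0.96), Crnde (0.96) and Irx5 (0.96), and Gbx2 with Dbx1 (0.95), Hpgds (0.92) and Ndnf (0.91). Otx2 was most like Zfp568 (0.94), 2610001J05Rik (0.94) and Gpx8 (0.94), Otx1 most like Plin3 (0.92), Atoh8 (0.91) and Morc4 (0.91), and Six6, found in 3 cells, most like Ctsc (0.88), Mief2 (0.87) and Calb2 (0.86). Among the 9 themselves the highest r was between Lhx2 and Emx2 (0.84), followed by En2 and Gbx2 (0.78) and Otx1 and Otx2 (0.72), and the lowest was between Emx2 and Irx3 (-0.86).

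Otx2 was the gene of the 9 called for a change with day in both organs, and its promoter windows were read for the letters that homeodomain factors are known to prefer, TAATTA in general and TAATCC for factors of the Otx type. The first reads alike on both strands, and the second reads GGATTA on the other. Of the 9 genes, 7 had windows of 250 bases before an annotated start in RefSeq on GRCm38.p6, 11 windows in all, of which 2 held TAATTA and 1 held TAATCC on either strand. Both TAATTA windows were those of Otx2. Among 32851 windows of all genes, 4.84% held TAATTA and 6.25% TAATCC. The Otx2 window at chr14:48665110-48665359 on the minus strand is shown because it held 3 copies of TAATTA and 1 of GGATTA, in capitals, none of which overlap.
Otx2: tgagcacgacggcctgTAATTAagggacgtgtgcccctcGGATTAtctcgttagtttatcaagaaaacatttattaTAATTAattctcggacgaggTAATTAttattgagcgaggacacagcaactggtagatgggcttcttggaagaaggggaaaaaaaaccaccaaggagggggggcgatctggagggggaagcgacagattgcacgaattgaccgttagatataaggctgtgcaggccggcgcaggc
A match of these letters is a description of the sequence and not a binding site, and promoter windows of Otx1 and En2 were not used here.

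Outside the brain the 9 genes were measured in 12 sets of cells, each an organ and a cell group with at least 3 embryo means. Each set was compared with the mean of the other sets. The limma fit gives each gene 1 spread over all 12 sets, so its intervals and p-values do not reflect the spread within a single set. Irx3 was measured at embryo mean levels above 1 in lung epithelium and in both skin sets, and En2 was not tested, since under 3 cells expressed it. Over 96 tests of the other 8 genes, 17 were called (10 higher, 7 lower), against 13.6% of 202668 tests of all genes. The 7 lower calls were all of Irx3. Since each set is set against the mean of the others, the 3 sets high in Irx3 place sets near 0 below that mean, and the lower calls are no result apart from the higher ones.

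In lung epithelial cells the embryo means of Irx3 were 2.27 and 1.78 at E9.5, 2.42 and 3.18 at E10.5, and 2.76 and 3.09 at E11.5, a mean of 2.58 ± 0.53 (SD, n = 6). This was higher than in the other sets by 2.07 (95% interval 1.81 to 2.32, adjusted p = 1.2e-20, with 11.8% of genes called). Skin epithelial cells followed at 2.21 ± 0.41 (difference 1.66, adjusted p = 5.1e-17, 14.9% called) and skin mesoderm-derived cells at 1.84 ± 0.51 (1.26, adjusted p = 5.8e-12, 8.91% called). With the hindbrain at 2.35 ± 0.53 and a range of 1.60 to 2.86, the embryo means of these 4 sets overlapped, so their order is not resolved. Below them came the heart mesoderm-derived cells at 0.50 ± 0.25 and the somite mesoderm-derived cells at 0.32 ± 0.21. Lower calls were made in intestine epithelial (-0.72, with 17% of genes called) and mesoderm-derived cells (-0.73, 8.98%), liver hematopoietic (-0.77, 27.3%) and epithelial cells (-0.58, 21.8%), heart hematopoietic (-0.54, 20.6%), lung mesoderm-derived (-0.53, 6.41%) and somite mesoderm-derived cells (-0.39, 9.27%). Of these, the lung and somite values turned to 0.64 and 0.97 by edgeR on summed UMIs (adjusted p 0.58 and 0.24), those of liver epithelium and heart were not called by it (0.23 and 0.80), and that of heart was also lost without E9.5 embryo 1 or E10.5 embryo 1 and that of somite without E9.5 embryo 1 or either E11.5 embryo. Lung mesoderm-derived cells of the same embryos stood at 0.21 ± 0.26, so in lung the gene was at 10 TPM or more in 80.7% of an embryo's epithelial cells on average and 4.87% of its mesoderm-derived cells.

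**Figure D5:**
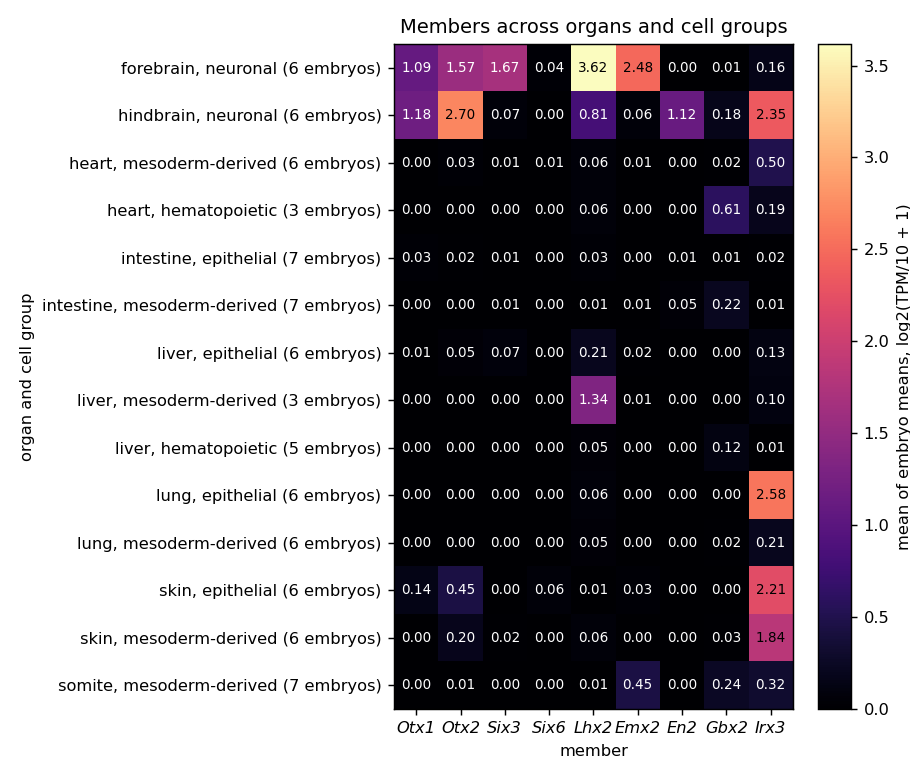
Mean over embryos of the embryo means, in log2(TPM/10 + 1), of the 9 genes (columns) in the neuronal cells of forebrain and hindbrain and in 12 sets outside the brain (rows, with the number of embryos). Irx3 stands at 2.58 in lung epithelium and 2.35 in hindbrain, Lhx2 at 3.62 in forebrain and 1.34 in liver mesoderm-derived cells, and most other values outside the brain are near 0.

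Lhx2 was higher in liver mesoderm-derived cells, most of them from E9.5. Its embryo means there were 0.35, 1.62 and 2.04 in E9.5 embryos 1, 2 and 3, a mean of 1.34 ± 0.88 (SD, n = 3). The difference from the other sets was 1.28 (1.05 to 1.52, adjusted p = 1.9e-12 by limma, with 2.69% of genes called). That interval rests on the spread over all 12 sets and is narrower than the range of these 3 embryos, 0.35 to 2.04. It was expressed in 17.6%, 46.9% and 65.2% of the cells of these embryos, so the lowest embryo stood apart. At later days this set held 3 cells in all and gave no embryo mean. In order of level Lhx2 ran from forebrain neuronal cells (3.62 ± 0.98) to liver mesoderm-derived cells and hindbrain neuronal cells (0.81 ± 0.84), and the ranges of the last 2 overlapped.

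The other calls outside the brain were small. Otx2 in skin epithelial cells had means of 1.11 and 0.86 at E9.5, 0.12 and 0.58 at E10.5 and 0.00 in both E11.5 embryos (difference 0.43, adjusted p = 9.7e-07), and Otx1 there stood at 0.00 to 0.33 (0.14, adjusted p = 1.8e-09). In skin, as in the brain, the Otx2 means of E9.5 lay above those of E11.5, though no slope was tested. Six6 was called in skin epithelium from 2 cells with a UMI of 81 (0.06, adjusted p = 0.00055), and Six3 in liver epithelium from 1 cell of 47 (0.07, adjusted p = 0.021, 21.8% of genes called). Emx2 was higher in somite mesoderm-derived cells (0.44, adjusted p = 0.0037, 9.27% called), where its means were 2.26 and 0.74 in the embryos of E10.5 and 0.00 to 0.08 in the other 5. That call was lost without E10.5 embryo 2 (0.39, adjusted p = 0.050), and without E10.5 embryo 1 the difference was 0.13 (adjusted p = 0.041). Gbx2 was higher in heart hematopoietic cells (0.55, adjusted p = 8.1e-05, 20.6% called) from 2 of 16 cells, and without E11.5 embryo 1 its adjusted p was 0.073. En2 had 28 UMIs in 4 of 90 intestine mesoderm-derived cells and at most 9 UMIs in any other of the 12 sets. The 10 neuronal cells dissected with the somites of E9.5 embryo 2 gave no test, and there Irx3 stood at 1.15 and Gbx2 at 0.82, with Otx1, Otx2, Six3, Six6 and En2 at 0 UMIs.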

How the data were processed

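Single cells of mouse organs (E9.5 to E11.5) were sequenced by the authors with a UMI-based method and aligned to mm10 with TopHat2 2.0.12 after CASAVA 1.8, per the submitters' processing notes and the study's methods. Uniquely mapped reads were counted with HTSeq (version and strand setting not given in the sources used here), and cells with under 2000 genes were dropped. The deposited values are CPM, UMIs per 1000000 UMIs of a cell, that the authors name TPM. Whole UMIs were recovered for 100% of the values above 0 (tolerance 0.05 UMIs), with totals equal to the listed totals in 1916 of 1916 cells. In 14 of 32 files the columns numbered 95 and 96 were identical and were counted as 1 cell, which left 1902 cells, 1801 with a group. No cell name was found in more than 1 file. At E10.5 and E11.5 the embryo was read from the cell names. No doublet caller was run.

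Embryo means of log2(TPM/10 + 1), with at least 3 cells, were fitted with limma 3.58.1 (trend) in R 4.3.3. A gene entered the test when 3 or more of the compared cells expressed it. P-values were adjusted by Benjamini-Hochberg over all such genes, with 0.05 as the threshold of a call. Fold changes on this scale understate those of low genes. All embryos are separate animals, and the p-values rest on embryo means. For the sides and the sets outside the brain, an embryo gave several means, which entered the main fit without an embryo term. Those p-values therefore do not measure the spread between animals alone. Both organs of an embryo came from the same animal, which pairs them. Deviations from the day means correlated between the organs with r = 0.36 (E9.5), -0.22 (E10.5) and -0.11 (E11.5) over 14195 genes.

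Alternatives were log2(TPM + 1), other filters, more cells per mean, the replicate block, each embryo left out, edgeR 4.0.16 (TMM and RLE) on summed UMIs, thinning to 50000 UMIs, no day term, progenitor-side cells only and E10.5 and E11.5 only. Keeping the identical columns, and the last of these for slopes and sides, were added after seeing the data. The 9 genes and all lists were chosen with earlier results of these data known. All 9 genes were named in each comparison. From each list the up to 4 called genes with the largest difference in each direction were named, and for likeness the 3 highest r. Some items that these rules name are not reported here.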

Additional observations from a re-analysis of the deposited data

Results flagged for a closer look

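In 6 of 24 groups of embryo means tested, a single embryo lay far from the others by Dixon's criterion. Its rate of about 1 in 20 groups holds for normal values of a single population. These groups mix embryonic days and some sit at or near 0, so the count cannot be set against that rate. In cells labelled hindbrain, Emx2 stood at 0.38 in E9.5 embryo 1 with the next embryo at 0.0048, the same library that had no En2. In forebrain, Irx3 stood at 0.72 in E10.5 embryo 1, on 9 cells, with the next embryo at 0.12. The forebrain value of Six6 was 0.15 in E10.5 embryo 2, with the next at 0.056, and that of Gbx2 was 0.042 in E9.5 embryo 1, with the others at 0. Outside the brain, Six3 stood at 0.44 in liver epithelial cells of E11.5 embryo 2, with the others at 0, and Emx2 at 2.26 in somite mesoderm-derived cells of E10.5 embryo 1, with the next at 0.74.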

How the results depend on the processing

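Of 98 values of single genes, recomputed 1523 times under the alternatives, 1387 kept their side of the threshold, 39 gained a call, 93 lost it and 4 reversed. Of the 1387, 79 were uncalled values that changed sign. Of 33 calls, 14 held under every alternative that could be run, among them Lhx2, Emx2 and Irx3 between the organs over all days. The cause of the changes was not tested. The reversed values were those of Irx3 by edgeR, 0.64 (TMM) and 0.63 (RLE) in lung mesoderm-derived cells and 0.97 and 0.90 in somite mesoderm-derived cells. The organ difference over all days, with 176 genes called, gave 286 with log2(TPM + 1), 75 with no filter, 113 with the replicate block, 84 without day, 102 in progenitor-side cells and 95 to 171 with an embryo left out, and of the 9 genes 5 were called, 3 with no filter and 5 to 6 with an embryo left out. At E9.5 the counts were 97, then 154 with log2(TPM + 1), 61 with no filter, 42 with the replicate block, 57 thinned and 10 to 95 with an embryo left out, and of the 9 genes 2, then 4 with log2(TPM + 1) or the filter of 10 cells, 1 with no filter and 0 to 3 with an embryo left out. At E10.5 they were 67, then 205 with log2(TPM + 1), 20 with the replicate block, 24 by edgeR with TMM or RLE and 9 to 160 with an embryo left out, and of the 9 genes 2, then 4 with log2(TPM + 1) or the filter of 10 cells, 1 with no filter, the replicate block, edgeR or thinning, 0 with more cells per mean and 0 to 3 with an embryo left out. At E11.5 they were 47, then 83 with log2(TPM + 1), 17 with the replicate block and 10 to 71 with an embryo left out, and of the 9 genes 2, then 0 with no filter or the replicate block, 1 by edgeR and 0 to 2 with an embryo left out.

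The forebrain slope had 2287 genes called, 915 and 829 by edgeR (TMM, RLE), 0 over E10.5 and E11.5 (limma), 243 in progenitor-side cells and 798 to 2515 with an embryo left out. Of the 9 genes 1 was called, 0 with no filter, edgeR, E10.5 and E11.5 only or progenitor-side cells and 0 to 2 with an embryo left out. The hindbrain slope had 722, then 1336 with log2(TPM + 1), 332 with no filter, 36 and 16 by edgeR, 314 thinned, 8 over E10.5 and E11.5, 52 in progenitor-side cells and 4 to 849 with an embryo left out. Of the 9 genes 2 were called (Otx1 and Otx2), 1 by edgeR, which was neither of these but Lhx2, 0 with no filter, thinning, E10.5 and E11.5 only or progenitor-side cells and 0 to 2 with an embryo left out. The difference of slopes had 0, with 2 by more cells per mean or edgeR and 0 to 6 with an embryo left out, never any of the 9. For the sides, forebrain gave 1540 and 808 to 1379 with an embryo left out, hindbrain 2431, 1503 over E10.5 and E11.5 and 1680 to 2167 with an embryo left out. Of the 9 genes 1 was called in each, in forebrain 2 over E10.5 and E11.5 and 0 to 1 with an embryo left out, and in hindbrain 2 with the replicate block, edgeR with TMM or the identical columns kept, 0 with no filter or thinning and 0 to 1 with an embryo left out. Outside the brain the 27583 calls ran from 21686 to 27674 with an embryo left out, and the 17 calls of the 9 genes from 14 to 26. Beyond those given, the replicate block changed no other call between brain organs. By edgeR the genes called also changed where the count did not, with Lhx2 in place of Emx2 at E9.5 and Otx2 in place of Emx2 between the forebrain sides. Six6 rests on 27 UMIs in 3 forebrain cells, and the part of depth in this was not tested.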
